A study of Homo sapiens with 3 samples.

Results

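Glucose enters most epithelial cells through the GLUT transporters (SLC2A genes), is trapped by hexokinases and is broken down by the glycolytic enzymes to pyruvate, which lactate dehydrogenase reduces to lactate or the pyruvate dehydrogenase complex passes to the mitochondria. The pentose phosphate pathway branches off at glucose 6-phosphate and makes NADPH and ribose. Many of these genes are known targets of the hypoxia-inducible factors and of MYC, and glucocorticoids are known to limit glucose uptake in several tissues. The genes described here are 39 listed genes of glucose uptake, glycolysis, lactate and pyruvate handling, the pentose phosphate pathway, gluconeogenesis and glycogen. They were chosen by function, but with earlier results of these data known. The array has named probes for 20043 genes in all. Of the 39, 37 had a named probe (63 probes in all), and the monocarboxylate transporter genes SLC16A1 and SLC16A3 were not analysed here.

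The cells were HCC1937, a human breast cancer line that the labels class as basal, kept in DMEM with only 3 mM glucose and 0.5 mM glutamine. Total RNA from 3 samples was measured, each on 1 Illumina bead array. One came from cells given 200 nM dexamethasone (a synthetic glucocorticoid) together with 1 µM retinoic acid, one from cells given 200 nM dexamethasone alone, both for 16 h, and one from untreated cells. No sample received retinoic acid alone, so its effect was seen only on top of dexamethasone. With 1 array per group there is no measure of the spread between cultures, and no test was possible. Higher and lower calls needed a background-corrected, quantile-normalized log2 intensity that differed by at least 1 (2-fold). The bead SE beside a difference covers only the spread between the beads of a probe within the arrays.

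The 3 arrays carried between 16635 and 17091 detected probes (detection p under 0.01). Their median unnormalized intensities were 159.0 on the combination array, 149.3 on the dexamethasone array and 131.6 on the untreated array, so unnormalized values cannot be compared directly. The dexamethasone array lay on slide 2 and the other 2 arrays shared slide 1, so slide and treatment cannot be told apart in any difference that involves dexamethasone alone. All 6 luminal markers checked gave signal above background throughout, as did 2 of the 4 basal markers, VIM (log2 values 12.61, 12.67 and 12.75 on the combination, dexamethasone and untreated arrays) and EGFR (6.42, 6.38 and 5.64). EGFR on the untreated array sat just above 5.59, the lowest detected value there, and its other probes were undetected throughout. The luminal markers on that array read 13.83 (KRT8), 9.43 (KRT18), 10.29 (ESR1), 10.55 (GATA3), 12.68 (FOXA1) and 14.17 (TFF1). Of the other 2 basal markers, the keratin KRT5 was detected on the dexamethasone array only and KRT14 on none, so the markers give no single answer on the basal label. KRT17 and TP63 were not analysed here. Endothelial markers were undetected throughout, as were all but 2 of the 5 fibroblast markers and all but 1 of the 3 leukocyte markers. Of 8 proliferation genes, all detected, 5 were lower on the combination array and 5 on the dexamethasone array than on the untreated one, with median log2 differences of -1.19 and -1.22 and summed background-corrected intensities of 14640, 10410 and 18360 on the combination, dexamethasone and untreated arrays. Of the luminal markers 3 and 4 were lower, with summed intensities of 31970, 30510 and 36610. Both sets of sums were not normalized between arrays, so they cannot be compared directly. Between the combination and dexamethasone arrays the normalized median log2 differences were -0.04 for the proliferation genes and 0.33 for the luminal markers. The part of these marker differences in the differences of the glucose genes was not tested. In bulk RNA fewer cells of a type and less RNA per cell cannot be told apart.

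Most glucose genes were detected and most differed little. The representative probe, the brightest of each gene, was detected on all 3 arrays for 34 genes, on the combination array only for PFKFB2, and on none for the transporter SLC2A12 and the pyruvate dehydrogenase kinase PDK1. In all, 12 genes passed the 2-fold rule in at least 1 comparison: SLC2A3, SLC2A8, SLC2A10, HK2, PFKFB3, PFKFB4, ALDOA, ALDOC, PDK3, TKT, FBP1 and PYGB. The share of all genes called in at least 1 comparison was not computed, so this count has no background. The shares for each comparison are given below. Among the 34 genes detected on all arrays, 20 had their highest value on the untreated array and 16 their lowest on the combination array, and 13 ran from untreated through dexamethasone alone down to the combination. These orders were not counted over all genes, so no trait of the glucose genes as a group is read from them.

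Compared with the untreated array, the dexamethasone array had 2 of 34 measured genes higher (5.88%) and 4 lower (11.8%). Over all 10852 measured genes 5.73% were higher and 4.57% lower (10.3% either way). The median log2 difference of the glucose genes was -0.21, against 0.00 for all measured genes. The combination array had 2 of 35 measured genes higher than on the untreated array (5.71%) and 6 lower (17.1%), where 5.84% and 5.43% of 10705 genes were called in those directions (11.3% either way). The median was -0.27, against -0.01 for all. The share of higher calls among these genes was therefore at the background, and that of lower calls was above it, at numbers of 4 and 6 genes. Since the genes were chosen with earlier results of these data known, these shares are a description only. With the median over detected probes in place of the brightest, 4 genes were lower on the combination array, where 4.97% of all genes were. The 2 comparisons share the untreated array, so they are not independent of each other, and 3 genes (SLC2A10, PFKFB4 and FBP1) were called lower in both. Between the combination and dexamethasone arrays 2 of 35 genes were higher and 1 lower, where 2.99% and 3.58% of 10734 genes were called (6.57% either way), and the median was -0.15, against -0.01. Nothing about the glucose genes as a group is read from these 3 calls.

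**Figure D1:**
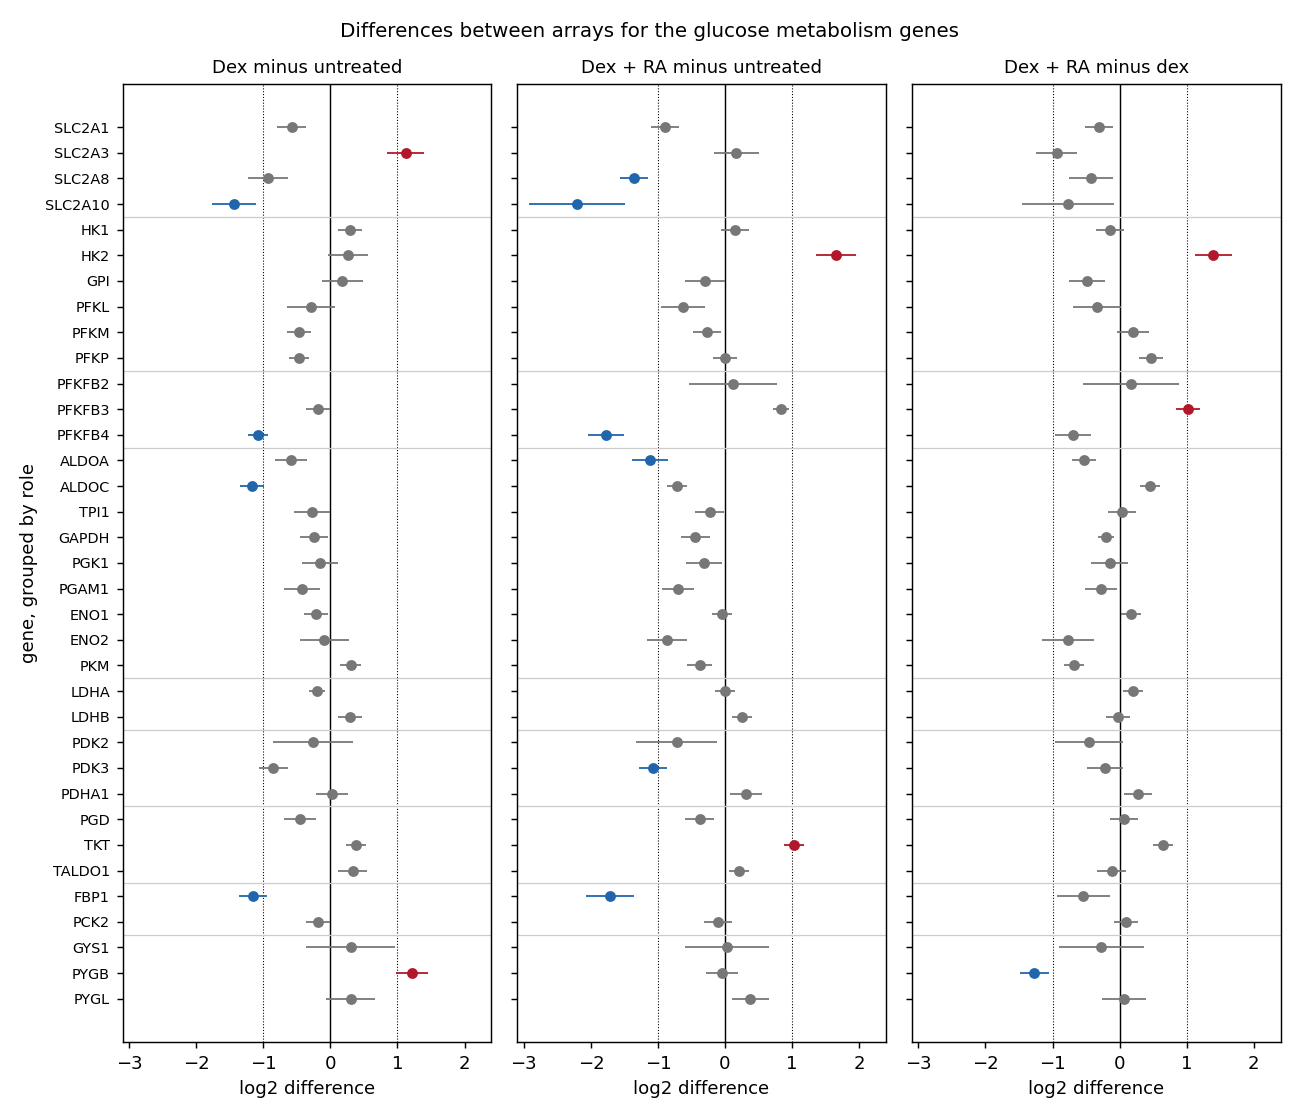
Each point is the log2 difference of 1 gene (representative probe) between the 2 arrays named above the panel, with bars of 3 bead SE, dotted lines at the 2-fold rule, and red and blue for genes called higher and lower. Grey lines separate the roles from glucose uptake at the top to glycogen at the bottom, and the value of SLC2A10 on the combination array, -2.21 from untreated, lies farthest from 0.

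**Figure D2:**
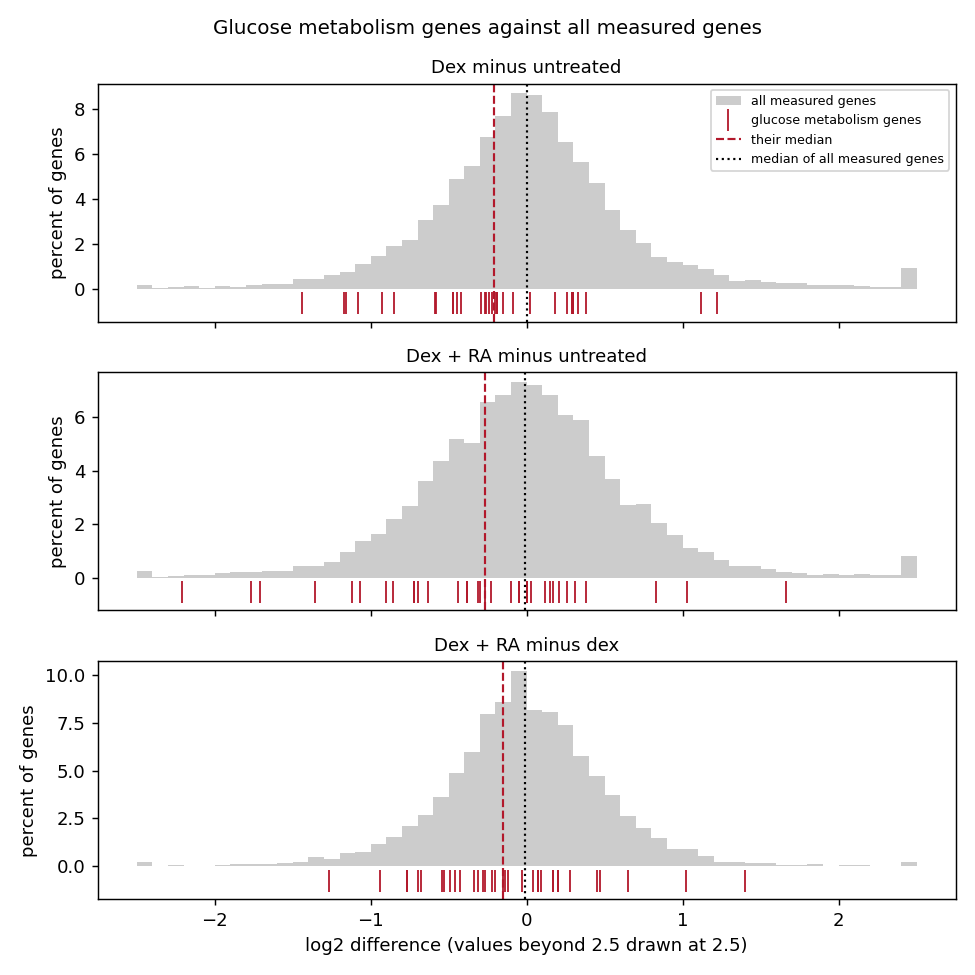
Grey bars give the percent of all measured genes in each 0.1-wide bin of log2 difference, and red ticks the glucose genes. The dashed medians of the glucose genes, -0.21, -0.27 and -0.15 from top to bottom, lie left of the dotted medians of all genes.

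The promoters of the 4 genes with the largest differences are printed here: SLC2A10, PFKFB4 and FBP1 were called lower on both treated arrays, and HK2, which has 2 annotated starts, higher on the combination array. Each runs from 250 bases before to 50 bases after a RefSeq transcription start in GRCh38.p14, 5′ to 3′ on the gene's strand. Capitals mark ACGTG or GCGTG, the core letters of the hypoxia response element, on either strand.
SLC2A10, chr20:46709399-46709698 (+ strand): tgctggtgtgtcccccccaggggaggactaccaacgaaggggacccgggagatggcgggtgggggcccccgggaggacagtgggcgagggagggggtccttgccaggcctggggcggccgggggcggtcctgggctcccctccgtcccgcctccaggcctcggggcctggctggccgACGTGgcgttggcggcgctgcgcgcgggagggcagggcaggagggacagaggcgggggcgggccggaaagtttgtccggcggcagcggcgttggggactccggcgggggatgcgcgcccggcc
PFKFB4, chr3:48556754-48557053 (- strand): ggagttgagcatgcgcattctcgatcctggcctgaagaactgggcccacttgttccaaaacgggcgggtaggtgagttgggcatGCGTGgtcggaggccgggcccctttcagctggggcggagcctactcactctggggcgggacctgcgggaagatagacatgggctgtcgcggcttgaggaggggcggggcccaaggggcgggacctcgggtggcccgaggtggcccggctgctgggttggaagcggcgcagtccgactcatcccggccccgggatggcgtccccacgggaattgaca
FBP1, chr9:94639469-94639768 (- strand): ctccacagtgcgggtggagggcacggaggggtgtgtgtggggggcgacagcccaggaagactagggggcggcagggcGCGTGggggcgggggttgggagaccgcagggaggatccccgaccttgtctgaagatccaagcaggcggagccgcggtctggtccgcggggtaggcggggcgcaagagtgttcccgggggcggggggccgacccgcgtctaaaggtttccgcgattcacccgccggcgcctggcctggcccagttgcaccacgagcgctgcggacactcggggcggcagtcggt
HK2, upstream start, chr2:74833877-74834176 (+ strand): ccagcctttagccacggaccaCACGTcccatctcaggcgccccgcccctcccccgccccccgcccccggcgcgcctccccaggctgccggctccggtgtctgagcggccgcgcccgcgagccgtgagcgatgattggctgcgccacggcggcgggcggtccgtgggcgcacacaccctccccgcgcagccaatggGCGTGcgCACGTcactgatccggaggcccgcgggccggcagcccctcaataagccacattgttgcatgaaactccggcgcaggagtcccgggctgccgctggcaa
HK2, downstream start, chr2:74834920-74835219 (+ strand): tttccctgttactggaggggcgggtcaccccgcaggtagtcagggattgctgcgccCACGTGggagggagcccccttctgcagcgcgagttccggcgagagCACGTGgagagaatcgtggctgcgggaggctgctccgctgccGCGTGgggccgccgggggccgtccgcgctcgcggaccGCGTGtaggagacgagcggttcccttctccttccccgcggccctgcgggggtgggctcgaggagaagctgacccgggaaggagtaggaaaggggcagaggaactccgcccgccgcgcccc

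HK2 held 3 of these matches at its upstream start and 6 at its downstream start, and the other 3 promoters held 1 each. In the downstream HK2 promoter 4 of the 6 come from 2 copies of CACGTG, the E-box bound by MYC and carbohydrate-responsive factors, which contains ACGTG on both strands. Of 64 promoters of 36 of the listed genes, 39 held ACGTG or GCGTG (60.9%), against 48.4% of all 35116 promoters, and 7 held CACGTG (10.9%, against 7.3%). The GC box GGGCGG was in 46 (71.9%, against 45.0%), and the printed promoters are 68.0% to 78.0% G or C. TGTTCT, a short form of the glucocorticoid receptor's motif, was in 5 (7.8%, against 14.8%) and in none of the printed ones. Both strands were searched, and a match of letters is a description, not a binding site.

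The largest decrease was in the RNA of SLC2A10, listed under glucose uptake. SLC2A10 encodes GLUT10, a transporter of intracellular membranes. Its log2 intensity was 5.84 on the combination array, 6.61 on the dexamethasone array and 8.05 on the untreated array. It was 4.63-fold lower with the combination than in untreated cells (log2 difference -2.21, bead SE 0.24), the 37th lowest of 10705 genes, and 2.71-fold lower with dexamethasone alone (-1.44, bead SE 0.11). The combination value sat just above 5.62, the lowest detected value of that array, and the other probe of SLC2A10 was undetected there, where it was at least 1.86-fold lower than in untreated cells. With the deposited normalized values the differences were -1.03 and -0.77, the second short of the rule. SLC2A8, encoding the intracellular transporter GLUT8, had log2 values of 8.75, 9.18 and 10.11 in the same order of arrays. The untreated array was again the highest, 2.56-fold above the combination (-1.36, bead SE 0.07), and dexamethasone alone fell just short of the rule (-0.93, bead SE 0.10).

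The main plasma membrane transporters went different ways. SLC2A1, encoding the basal transporter GLUT1, had log2 values of 11.14 on the combination array, 11.45 on the dexamethasone array and 12.03 on the untreated array. Both treated arrays were thus below the untreated one, by -0.90 and -0.58, within 2-fold. SLC2A3, encoding the high-affinity transporter GLUT3, instead had its highest value on the dexamethasone array, 8.38, with 7.43 on the combination array and 7.26 on the untreated one. It was 2.17-fold higher with dexamethasone alone than in untreated cells (1.12, bead SE 0.09). On the combination array it differed from untreated by 0.17 and from dexamethasone alone by -0.94. With the deposited normalized values the difference from untreated with dexamethasone alone was 0.69, short of the rule. SLC2A12 was not detected.

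At the first steps of glycolysis HK2 stood out. HK2 encodes the inducible hexokinase that binds mitochondria, and HK1 the hexokinase most tissues express. The log2 values of HK2 were 11.39 on the combination array, 9.99 on the dexamethasone array and 9.73 on the untreated array, from unnormalized intensities of 3572, 1102 and 710.8. Only the combination array was high, 3.15-fold above untreated (1.66, bead SE 0.10; 188th highest of 10705 genes) and 2.63-fold above dexamethasone alone (1.40, bead SE 0.09; 113th highest of 10734). The second HK2 probe gave 3.78-fold and 3.06-fold. The combination and untreated arrays shared a slide, so the larger of these differences was seen within a slide. HK1 had values of 12.37, 12.51 and 12.22 on the combination, dexamethasone and untreated arrays, differing from untreated by 0.15 and 0.29, and by 0.06 and 0.54 on a dim further probe. GPI, the isomerase that follows, had 10.94, 11.43 and 11.24 and differed by -0.30 and 0.18. Both stayed well within 2-fold.

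The phosphofructokinase subunits differed little between arrays. PFKL, the liver-type subunit, had log2 values of 8.76 on the combination array, 9.10 on the dexamethasone array and 9.39 on the untreated array, differing from untreated by -0.63 and -0.29. PFKM, the muscle type, had 9.95, 9.74 and 10.21 and differed by -0.27 and -0.47. PFKP, the platelet type, had 11.72, 11.25 and 11.72, so that only the dexamethasone array was low, by -0.47. None of these reached 2-fold.

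The PFKFB enzymes set the level of fructose 2,6-bisphosphate, the activator of phosphofructokinase, and the 2 well-measured ones ran in opposite directions on the combination array. PFKFB3, the isoform whose kinase activity most outweighs its phosphatase activity, had log2 values of 11.25 on the combination array, 10.23 on the dexamethasone array and 10.42 on the untreated array. It was 2.03-fold higher with the combination than with dexamethasone alone (1.02, bead SE 0.06), at the edge of the rule, its other probe differed by 0.49, and the median over its probes, 0.75, fell short of the rule. Against untreated the difference was 0.83. PFKFB4 had values of 7.51, 8.20 and 9.28 in that order of arrays. It was 3.42-fold lower than untreated with the combination (-1.77, bead SE 0.09; 106th lowest of 10705 genes) and 2.11-fold lower with dexamethasone (-1.08, bead SE 0.05), and the difference with dexamethasone was -0.81 with the deposited normalized values. PFKFB2, the isoform known from heart, was detected on the combination array only, with a log2 value of 5.72, at least 1.12-fold above dexamethasone and at least 1.09-fold above untreated.

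**Figure D3:**
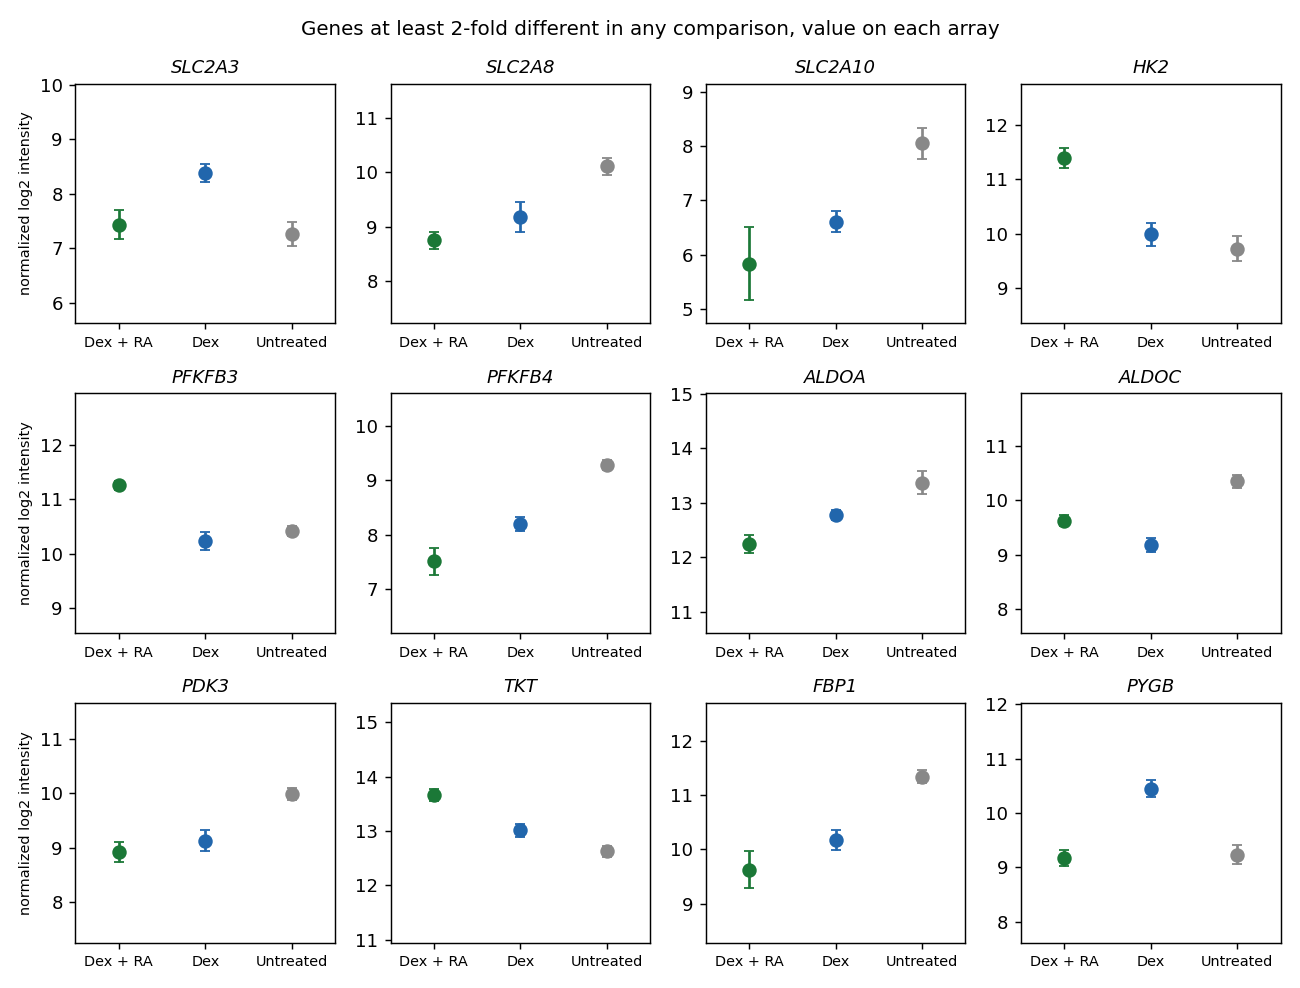
Each panel shows 1 of the 12 genes called in any comparison, with its normalized log2 intensity on the combination, dexamethasone and untreated arrays (1 array each) and bars of 3 bead SE. All panels span the same log2 range around their own middle, and levels of different genes are not comparable. HK2, PFKFB3 and TKT peak on the combination array, SLC2A3 and PYGB on the dexamethasone array, and the other 7 on the untreated array.

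From aldolase to pyruvate kinase the values were lower by small amounts. On their representative probes, all 9 genes of this stretch lay below untreated on the combination array, from -1.12 to -0.05 with a median of -0.44. On the dexamethasone array 8 of 9 lay below it (median -0.24). Of all measured genes, 50.5% and 49.6% lay below untreated on the combination and dexamethasone arrays. The count with dexamethasone depends on the probe chosen. Another bright probe of ALDOA (0.08, bead SE 0.05) and of TPI1 (0.11, bead SE 0.20) did not lie below untreated, both being close to 0. All 9 remained below 0 in the combination under each of the 10 alternative settings tried. All 9 were detected on every array, so the settings that changed only the detection filter, threshold or bound could not alter this. The smallest difference, -0.05 for ENO1, had a bead SE of 0.05. Against untreated, 1 gene passed the rule in each comparison. ALDOA, the main aldolase of most tissues, was 2.17-fold lower with the combination (log2 values 12.25 on the combination array, 12.78 on the dexamethasone array and 13.37 on the untreated array; -1.12, bead SE 0.09). Another bright ALDOA probe differed by -0.22 and a dim one by -0.09, and the median over its probes was short of the rule. With dexamethasone alone the representative ALDOA probe differed by -0.59 and the other bright one by 0.08, close to 0. ALDOC, the brain-type aldolase, had values of 9.63, 9.18 and 10.35 in the same order and was 2.25-fold lower with dexamethasone alone (-1.17, bead SE 0.06), with -0.72 in the combination.

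The remaining genes of this stretch stayed within 2-fold on their representative probes. PGAM1, the phosphoglycerate mutase, had log2 values of 10.77 on the combination array, 11.05 on the dexamethasone array and 11.47 on the untreated array. It differed from untreated by -0.70 and -0.42, and its other probe by -1.04 and -0.74, so both probes were lowest on the combination array. ENO2, the neuronal enolase, had 7.27, 8.04 and 8.13 and differed by -0.86 and -0.09. The main enolase gene ENO1 differed by -0.05 and -0.22. GAPDH, the dehydrogenase often used as a loading control, had 13.37, 13.57 and 13.81 and differed by -0.44 and -0.24, with -0.29 and -0.03 and then -0.28 and -0.12 on the other 2 probes. PGK1, the first kinase of this stretch that yields ATP, differed by -0.31 and -0.15, and its other probe by -0.16 and -0.33. The triose isomerase TPI1 differed by -0.23 and -0.27. Its other, similarly bright probe differed by -0.04 and 0.11 (bead SE 0.12 and 0.20), too close to 0 to give a sign. All 3 GAPDH probes thus lay a little below untreated on both treated arrays, though the -0.03 with dexamethasone had a bead SE of 0.05. PKM, the pyruvate kinase that makes the M1 and M2 isoforms, was the 1 gene of the stretch with opposite signs. Its log2 values were 10.29, 10.97 and 10.67, a difference from untreated of -0.38 in the combination and 0.30 with dexamethasone. Between the combination and dexamethasone arrays it differed by -0.68, and its other 2 probes by -1.07 and -0.79, so all 3 probes were lower with the combination. Several of these genes (GAPDH, ALDOA, PGK1, LDHA and PGAM1 among them) have processed pseudogenes, which a probe may also bind.

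At the end of glycolysis LDHA, the lactate dehydrogenase subunit that favours lactate, had log2 values of 13.96 on the combination array, 13.76 on the dexamethasone array and 13.96 on the untreated array. LDHB, the other subunit, had 10.88, 10.91 and 10.62. Neither differed by more than 0.29 in any comparison on these probes. A further bright LDHA probe, with 13.78, 13.27 and 13.57, differed by 0.50 (bead SE 0.05) between the combination and dexamethasone, and a dim one by 0.48. Against untreated these probes gave 0.21 and -0.16 with the combination and -0.29 and -0.64 with dexamethasone, so all 3 LDHA probes were lowest on the dexamethasone array. Of the enzymes that steer pyruvate, PDK3, a kinase that switches pyruvate dehydrogenase off, had log2 values of 8.92 on the combination array, 9.13 on the dexamethasone array and 9.99 on the untreated array. It was 2.10-fold lower with the combination (-1.07, bead SE 0.07) and differed by -0.85 with dexamethasone. Its other probe gave -0.74 and -1.13, so both probes were lower on both treated arrays and each passed the rule in 1 of the comparisons. The median over the PDK3 probes, -0.91, was short of it. PDK2, another such kinase, was dim, with 5.96, 6.42 and 6.68, and differed by -0.72 and -0.26 (bead SE 0.20 each). PDHA1, a catalytic subunit gene of the complex, had 11.70, 11.42 and 11.40, differing by 0.31 and 0.02.

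In the pentose phosphate pathway TKT, the transketolase that links the pathway back to glycolysis, was high on the combination array. Its log2 values were 13.66 on the combination array, 13.01 on the dexamethasone array and 12.63 on the untreated array. The combination was 2.04-fold above untreated (1.03, bead SE 0.05), and dexamethasone alone differed by 0.38. With arrays scaled to the 75th percentile instead, the combination difference was 0.84, short of the rule. TALDO1, the transaldolase, had 12.38, 12.50 and 12.17 on the combination, dexamethasone and untreated arrays and differed from untreated by 0.21 and 0.33. PGD, a dehydrogenase of the oxidative branch, had 10.80, 10.73 and 11.18 and was a little low on both treated arrays (-0.38 and -0.45).

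FBP1 and the glycogen phosphorylase PYGB completed the calls. FBP1, fructose-1,6-bisphosphatase, opposes phosphofructokinase and drives gluconeogenesis in liver and kidney. Its log2 values were 9.63 on the combination array, 10.18 on the dexamethasone array and 11.34 on the untreated array. Both treated arrays were low, 3.26-fold with the combination (-1.71, bead SE 0.12; 124th lowest of 10705 genes) and 2.24-fold with dexamethasone (-1.16, bead SE 0.07). PCK2, the mitochondrial phosphoenolpyruvate carboxykinase, had 10.57, 10.47 and 10.66, with differences from untreated of -0.10 and -0.19, and its other 2 probes differed in the combination by -0.68 and 0.23. PYGB, the brain-type enzyme that breaks down glycogen, had 9.18 on the combination array, 10.45 on the dexamethasone array and 9.23 on the untreated array. The dexamethasone array alone was high: 2.33-fold above untreated (1.22, bead SE 0.08), with the combination 2.41-fold below dexamethasone (-1.27, bead SE 0.07) and -0.05 from untreated. Since that array was also the only one on slide 2, slide and treatment cannot be told apart for PYGB, and the same holds for SLC2A3. PYGL, the liver-type phosphorylase, had 9.46, 9.39 and 9.08 and differed from untreated by 0.38 and 0.30. The glycogen synthase GYS1 was dim, with 5.94, 6.22 and 5.92.

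Genes with several probes allow a check within the arrays. On the combination array, 15 of 18 other measured probes differed from untreated in the direction of the representative one, as did 16 of 18 on the dexamethasone array. Between the combination and dexamethasone arrays 12 of 18 did. For the called differences, all 8 values from other measured probes had the sign of the representative probe, and of these the HK2 probe passed the rule in both comparisons. The 8 values are not independent, since HK2 and SLC2A10 each gave more than 1 from shared arrays. The further SLC2A10 probe was undetected on the combination array, and its bounded difference there could not be positive. The ALDOA value of -0.09 had a bead SE of 0.31, so its sign says little.

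**Figure D4:**
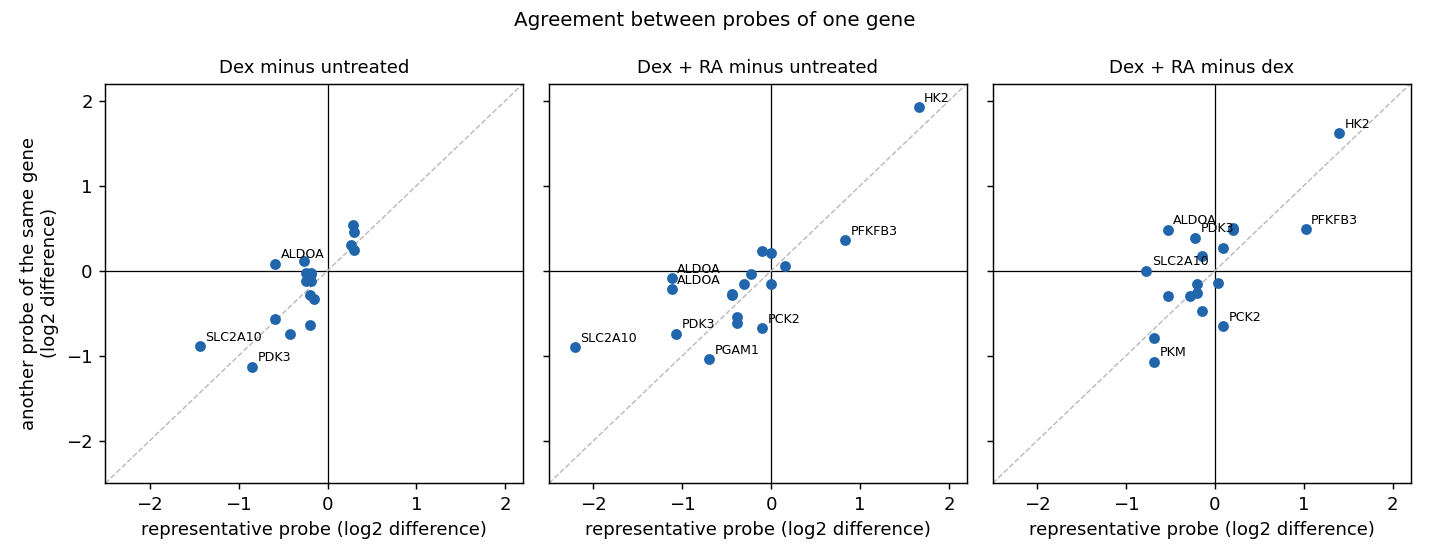
Each point is a further measured probe of a gene, its log2 difference on the vertical axis against that of the gene's representative probe on the horizontal axis, with equality dashed. HK2 lies near the line at 1.66 and 1.92 for the combination against untreated, whereas ALDOA at -1.12 has further probes at -0.22 and -0.09.

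Further genes of the pathway came from 7 other lists of 77 genes. Over these, 1 of 44 measured genes was higher and 0 lower with dexamethasone, and 4 of 42 were higher and 3 lower with the combination, against untreated, where 10.3% and 11.3% of all genes were called either way. Between the combination and dexamethasone 2 of 42 were higher and 1 lower, near the 6.57% of all genes called either way. BSG encodes basigin, the chaperone that carries lactate transporters to the membrane. Its log2 values were 9.98 on the combination array, 11.32 on the dexamethasone array and 11.01 on the untreated array, and the combination was 2.54-fold below dexamethasone (-1.34, bead SE 0.07) and 2.04-fold below untreated. LDHD, a mitochondrial D-lactate dehydrogenase, was higher with the combination, by 2.33-fold against untreated (1.22, bead SE 0.35) and 2.10-fold against dexamethasone, from a dim probe.

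Among genes of ribose and glucose 6-phosphate, PRPS1, which makes the ribose donor of nucleotides, was 2.56-fold higher with the combination than with dexamethasone (1.35, bead SE 0.07) and 2.05-fold higher than untreated. H6PD, the hexose-6-phosphate dehydrogenase of the endoplasmic reticulum, was 2.09-fold higher with dexamethasone alone (1.06, bead SE 0.23). That came from a dim probe, with a log2 value of 5.72 on the untreated array, just above its lowest detected value of 5.59. The other H6PD probe was undetected on all 3 arrays. SLC37A4, which carries glucose 6-phosphate into that compartment, was 2.32-fold lower with the combination than in untreated cells, and the transporter SLC2A6 2.17-fold lower. These genes too were each called in 1 or 2 of the 3 comparisons.

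Of the regulators, MYC was 2.31-fold higher with the combination than in untreated cells (1.21, bead SE 0.07) and 3.40-fold on its other probe. HIF1A, the oxygen-regulated subunit gene, was 2.01-fold higher (1.01, bead SE 0.07), with 0.54 and 0.51 on its other 2 probes. Dexamethasone alone gave 0.56 for MYC, with 0.6 on its other probe. For HIF1A it gave 0.27, with -0.28 and 0.18 on the other 2 probes, so the HIF1A probes differed in sign. TXNIP, an inhibitor of glucose uptake that glucose itself induces, differed by -0.79 from untreated on both treated arrays. PDK4, a pyruvate dehydrogenase kinase that glucocorticoids induce in several tissues, was not detected on any of the 3 arrays.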

How the data were processed

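RNA from HCC1937 cells was hybridised to 3 Illumina bead arrays, per the labels. Mean intensity over the beads of a probe was deposited without scaling or background subtraction, as judged from the values, with a standard error over beads and the number of beads. A detection p-value was deposited for each probe. A second deposited table of linear intensities appeared quantile normalized (medians 137.4 to 137.5), which was inferred from the values. The authors' software is not given in the sources used here.

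With limma 3.58.1 in R 4.3.3, normexp background correction (offset 16, negative controls inferred from detection p-values) was followed by quantile normalization and log2. Python 3.11.15, numpy 2.4.6, pandas 2.3.3 and matplotlib 3.10.9 did the rest. Probes were named from the platform annotation (30109 probes with 1 symbol, 8 with several, 17198 unnamed here). The probe with the highest mean stood for its gene. Genes entered a comparison when either array detected them at a p-value below 0.01. Where the other array did not, the higher of its lowest detected value and the probe's own value was used, and the fold is written "at least". Promoters came from RefSeq tables of GRCh38.p14, which matched 36 of 39 genes. The number of arrays limits the precision, and no test was run. The procedure was tested on simulated arrays. It failed its first criterion, closeness to the simulated difference, for large decreases, which the offset shrinks. The criterion was changed after that failure to closeness to the difference the offset leaves, which it passed.

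The genes and lists were chosen with earlier results of these data known. Values on each array are given for every listed gene past the 2-fold rule in any comparison and for up to 4 further genes per role with the largest differences. Of the 77 further pathway genes, those past the rule are named (up to 4 per list), plus PDK4 and TXNIP. Alternatives covered the background step, offset, scaling, deposited values, detection filter and threshold, the bound and the choice of probe.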

Additional observations from a re-analysis of the deposited data

How the results depend on the processing

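Of the 17 differences called in the 12 genes, 10 stayed past the 2-fold rule under all 10 alternatives and 0 changed sign under any. All 12 genes were detected on every array. The alternatives that changed only the detection filter, its threshold or the bound therefore could not move these differences. Nor could the median over probes for a gene with 1 measured probe. The calls that were lost under at least 1 alternative were ALDOA, PDK3 and TKT for the combination against untreated, PFKFB3 for the combination against dexamethasone, and PFKFB4, SLC2A10 and SLC2A3 for dexamethasone against untreated. Without background correction and with the deposited normalized values, 1 gene was higher and 2 were lower with dexamethasone than untreated, and 1 was higher with the combination than with dexamethasone. These settings compress dim values, and over all genes they called 2.82% and 2.66% higher and 1.63% and 1.52% lower in the first of these comparisons. In the second they called 1.01% and 0.978% of all genes higher. With an offset of 50, 1 gene was higher and 3 lower with dexamethasone than untreated, where 4.13% and 2.99% of all genes were called. With the median over detected probes, 1 was higher with the combination than with dexamethasone, where 2.83% of all genes were. In that setting 4 in place of 6 were lower with the combination than untreated, where 4.97% of all genes were. Scaling to the 75th percentile of all probes left 1 gene higher and 5 lower with the combination than untreated, where 6.34% and 5.11% of all genes were called. Scaling to the 75th percentile of the probes detected on all arrays was added after seeing the data. It gave 1 gene higher and 6 lower for the combination against untreated (median -0.35), where 5.56% and 6.28% of all genes were called. Against dexamethasone it gave 2 higher and 3 lower (median -0.24, with -0.10 for all genes), where 2.24% and 4.92% of all genes were called and lower calls over all genes went up to 528, against 384 with quantile normalization. The cause of these shifts was not tested. No paired analysis was possible because each group holds 1 array, and slide as a block was not run because the dexamethasone array was alone on its slide. Signal near background limits SLC2A10, PDK2, GYS1 and PFKFB2, and H6PD and LDHD among the further pathway genes.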
